A study of Homo sapiens with 3 samples.

Results

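Cells with a low share of mitochondrial RNA were compared with cells of usual share inside each of 3 single-cell libraries of H9, an established human embryonic stem cell line. A member was a barcode with 2000 to 5000 UMIs (unique molecular identifiers, which count captured RNA molecules) and at least 500 genes. It was placed on the low side when under 5% of its UMIs came from MT- genes, the genes of the mitochondrial chromosome, and on the usual side at 5 to 25%. The rule took 2422 of the 39687 barcodes in the files, 1404 on the low side and 1018 on the usual side. The library labelled day 0 gave 201 low and 275 usual cells, that labelled day 2 gave 496 and 279, and that labelled day 6 gave 707 and 464.

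The droplet method was inDrop with the TruDrop protocol, and the labels give 1 library each for 0, 2 and 6 days of neural progenitor differentiation of H9 with a commercial SMAD inhibitor induction kit and mTeSR medium. Both sides of a library therefore share the line and the treatment, and no agent or genotype separates them. The labels call the first library stem cells and the other two differentiated stem cells or neural progenitors, with the unexplained letters A, B and A after the days. Marker content went against the day labels: on the usual side POU5F1, the pluripotency factor OCT4, had levels of 1.16, 1344 and 320.3 CPM (counts of UMIs scaled to 1e+06 in each sum), while PAX6, a neural progenitor factor, had levels of 240.1, 13.2 and 49.3 CPM. Here and below, values given as a series of 3 follow the label order day 0, day 2, day 6, with low before usual where both sides are given. The days are labels only, and no order in time is read from them.

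Mitochondria transcribe their own small genome, and these transcripts stay inside the organelle, whereas most nuclear messages are exported to the cytosol. MALAT1, NEAT1 and KCNQ1OT1 are long non-coding RNAs that remain in the nucleus, and unspliced transcripts of long genes are also found mostly there. The share of UMIs from MT- genes is widely used to judge single cells, and the balance of nuclear, cytosolic and mitochondrial RNA in a barcode is read from such transcripts.

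Because the mitochondrial share chose the members, it is given only as a description. Its median was 1.21% on the low and 13.8% on the usual side of the library labelled day 0, 2.02% and 12.2% in that labelled day 2, and 1.90% and 12.6% in that labelled day 6. The summed UMIs without MT- genes were 634263 and 862100, 1598146 and 758797, and 2178380 and 1358218 in the same order, so 3 UMIs correspond to between 1.38 and 4.73 CPM. Median UMIs per cell, MT- genes included, were 3060 and 3671, 3214 and 3024, and 2992 and 3319. Without MT- genes they were 3001 and 3125, 3132.5 and 2618, and 2934 and 2795.5. By that measure the low side was the shallower in the library labelled day 0 and the deeper in those labelled day 2 and day 6. After every cell was thinned to 1500 UMIs without MT- genes, low cells had the fewer genes in each library, with medians of 903 against 972, 909 against 945 and 962 against 1009 genes. Barcodes under 1000 UMIs had median mitochondrial shares of 19.8%, 30.3% and 18.4%, above the usual side. No doublet caller was run here, and 10 member barcodes occurred in more than 1 library.

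The 3 nuclear RNAs were lower, not higher, in the cells of low mitochondrial share. All values are CPM, taken over summed UMIs without MT- genes, and since cells were summed, fewer cells with a transcript and less of it per cell cannot be told apart. MALAT1 (chromosome 11, 65497688 to 65506516, plus strand, GRCh38), the most abundant of them, was at 1813 against 5112 CPM, 389 against 1135 CPM and 547 against 780.4 CPM. In each library the low side was the lower, although the sides overlapped across libraries. The usual side exceeded the low side 2.82-fold (95% interval 2.64 to 3.01), 2.92-fold (2.63 to 3.24) and 1.43-fold (1.31 to 1.55); these intervals cover counting error only. The log2 ratio of low over usual averaged -1.18 ± 0.58 (SD, n = 3 libraries), and edgeR's quasi-likelihood test with the library as a block gave a Benjamini-Hochberg adjusted p = 4.78e-11.

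NEAT1 (chromosome 11, 65422774 to 65445540, plus strand), the scaffold of nuclear paraspeckles, stood at 12.6 against 51.0 CPM, 0.626 against 10.5 CPM and 3.67 against 8.10 CPM, and was lower on the low side in 3 of 3 libraries. The library labelled day 2 held only 1 NEAT1 UMI on the low side and 8 on the usual side, and the interval in the library labelled day 6 held 1, with a usual over low ratio of 2.21 (0.808 to 6.32). The edgeR log2 estimate over the libraries was -1.94 with an adjusted p of 0.000523. KCNQ1OT1 (chromosome 11, 2608328 to 2699994, minus strand), the imprinted antisense RNA of the KCNQ1 locus, was at 7.88 against 73.1 CPM, 0.626 against 11.9 CPM and 9.18 against 41.2 CPM. Its usual over low ratios were 9.27 (3.77 to 29.5), 18.96 (2.63 to 831, from 1 UMI against 9) and 4.49 (2.65 to 7.90), and edgeR gave a log2 estimate of -2.63 with an adjusted p of 6.56e-08. Whether the counting used strand is not given in the sources used here, so reads of KCNQ1OT1 and of KCNQ1 cannot be told apart.

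**Figure D1:**
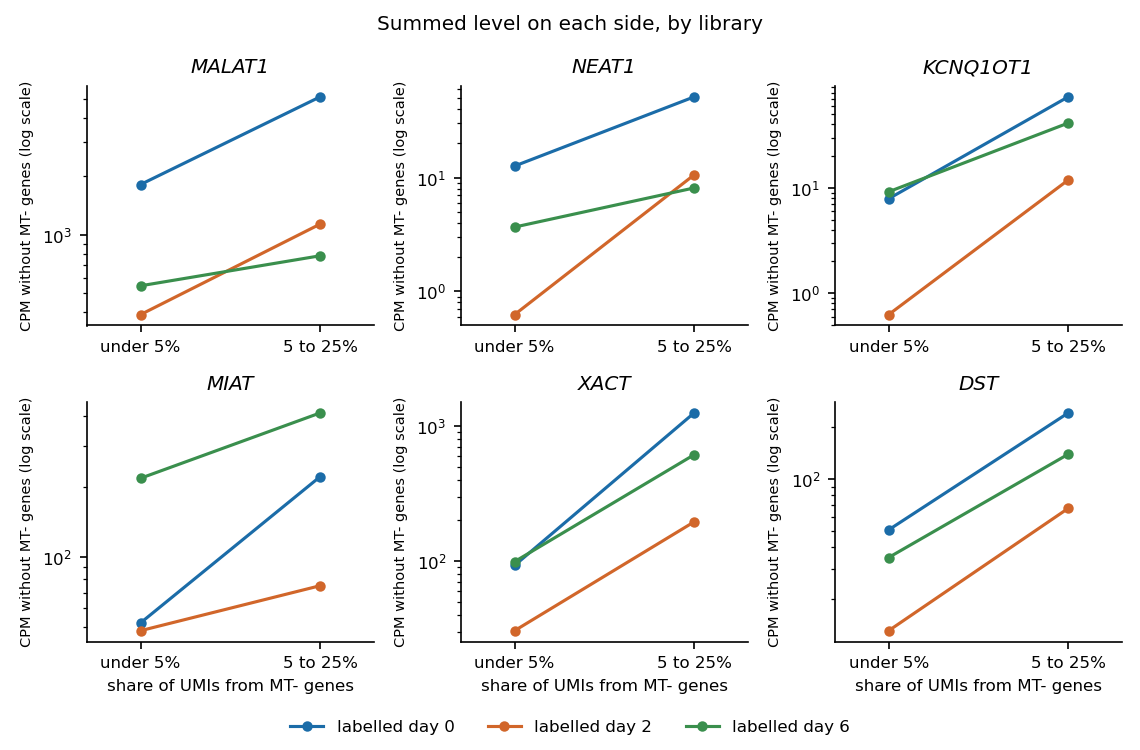
Level in CPM without MT- genes (log scale) of 6 transcripts on the low (under 5%) and usual (5 to 25%) side; each line joins both sides of 1 library. Every line rises from low to usual, for MALAT1 from 1813 to 5112, from 389 to 1135 and from 547 to 780.4 CPM.

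Fewer low cells held any MALAT1 UMI. At 1500 UMIs per cell the shares were 49.3% of low and 94.9% of usual cells in the library labelled day 0, 31.0% and 60.6% in that labelled day 2, and 39.0% and 50.4% in that labelled day 6. The exact Clopper-Pearson 95% intervals of both sides were apart in each library, nearest in that labelled day 6 (35.4 to 42.7% against 45.8 to 55.1%). Without thinning, the shares were 61.7% and 98.2%, 45.4% and 74.6%, and 50.4% and 65.1%. MALAT1 is expressed by nucleated cells in general, so no cell type gave a background share for free RNA.

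The gap around the limit of 5% was small in cell number and differed between libraries. Under the day 2 label MALAT1 stood at 515 CPM in the 59 cells at 4 to 5% and at 642 CPM in the 44 cells at 5 to 6%. In that labelled day 6 it stood at 722 CPM in 55 cells and at 713 CPM in 44 cells. That labelled day 0 held 10 and 4 cells in these ranges, with 4635 and 771 CPM, too few cells to read. Over the whole range, MALAT1 in the library labelled day 2 was at 333 CPM below 2%, 1366 CPM at 10 to 15%, 1527 CPM at 15 to 25% and 2105 CPM above 25%. In the other libraries it was highest at 10 to 15%, at 5468 and 891 CPM, and lower above 25%, at 2026 and 344 CPM. No test was made along these ranges, because the rule used the share itself.

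**Figure D2:**
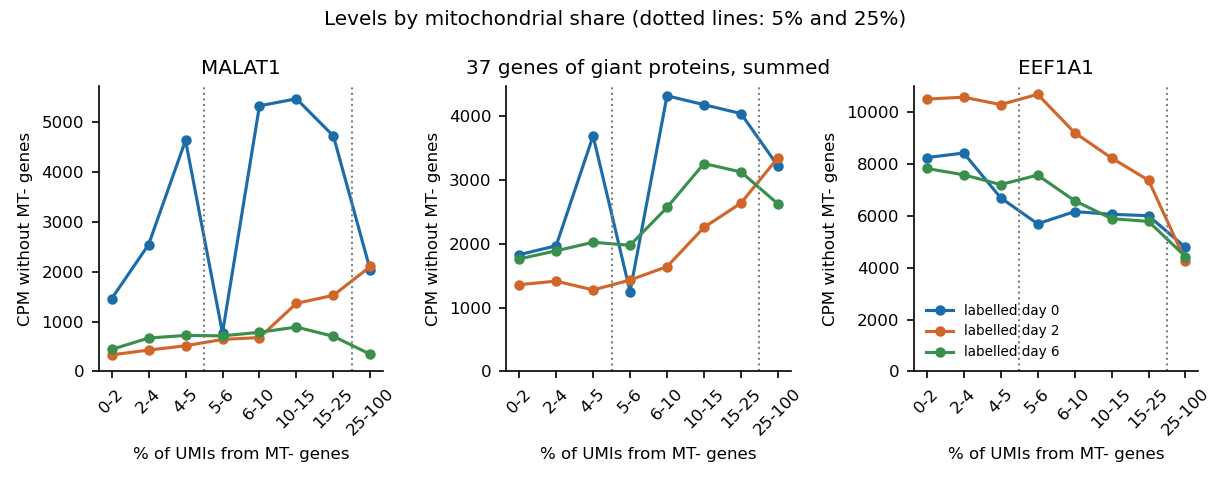
Levels in CPM without MT- genes by the percent of UMIs from MT- genes, for MALAT1, the summed 37 genes of giant proteins and EEF1A1, with 1 line per library. The library labelled day 0 has 10 cells at 4 to 5% and 4 at 5 to 6%, where its line jumps; EEF1A1 is lowest above 25% in each library.

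Across 9438 genes with a mean of at least 10 CPM, 439 were higher on the low side (4.65%) and 1603 lower (17.0%) at an adjusted p under 0.05 in edgeR's test. These p-values rest on the spread between 3 libraries of 1 line, which differ in label and content. The test shares its estimate of spread over genes, so a p-value does not measure 1 gene's own spread over the 3 pairs. A stricter description, that the 95% intervals of all 3 libraries lie on the same side of 1, held for 259 genes above 1 (2.74%) and 649 below 1 (6.88%). At least 1.5-fold in each of the 3 libraries, 7 genes were higher (0.0742%) and 932 lower (9.87%). The split between higher and lower hung on scaling: it was 1607 and 1167 with TMM factors, 1181 and 1218 with DESeq2 size factors and 1290 and 1154 with totals that include MT- genes, and the median edgeR log2 ratio of the tested genes moved from -0.07 to 0.14, 0.08 and 0.11. No gene of the 1603 was called higher, and none of the 439 lower, under these scalings. Because each scaling moved the median ratio upward, the latter is no check of the 439.

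Deeper barcodes of the same libraries gave most of the same calls, and shallower ones gave few. In barcodes above 5000 and up to 20000 UMIs, which the rule did not use, the libraries held 101 and 960, 331 and 380, and 297 and 975 low and usual cells. There 404 of the 439 higher genes were called higher again (92.0%, and 29.4% of the 1375 called higher there), and 1524 of the 1603 lower genes were called lower again (95.1%, and 55.7% of 2738). No gene of either list was called in the opposite direction. MALAT1 in these cells was at 1470 against 4866, 423 against 1251 and 566 against 854 CPM, with an edgeR log2 estimate of -1.297 and an adjusted p of 4.60e-05.

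The wider list of nuclear retained long non-coding RNAs lay mostly on the lower side. Of 13 tested, 9 were lower (69.2%, beside 17.0% of all tested genes) and 0 were higher. The median log2 ratio was -1.22, beside -0.08 for all tested genes. SNHG14 and MIAT, long RNAs that stay in the nucleus, were among the 9. In the library labelled day 6 SNHG14 was nearly level. There it took 415 to 484 CPM over ranges of mitochondrial share under 5%, and 462 to 480 CPM over those from 5 to 25%. MIAT was at 52.0 against 220.4 CPM, 48.2 against 75.1 CPM and 217 against 414 CPM, with an adjusted p of 1.06e-06. OIP5-AS1, which also acts in the cytosol, did not pass the test (129 against 139, 158 against 161 and 156 against 155 CPM). Summed over the 20 members found, the list took 2576 against 6889, 1262 against 2629 and 1973 against 2996 CPM, always less on the low side. Of antisense RNA genes, 25 of 82 tested were lower and 0 higher, and of the LINC named RNAs 16 of 53 were lower and 1 higher. The lower ones are 30.5% and 30.2% of these lists, beside 17.0% of all tested genes.

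The list of snoRNA host genes, whose introns carry small nucleolar RNAs while their spliced transcripts are often exported, had 3 of 15 lower and 0 higher, near the 17.0% of all tested genes that were lower. With TMM factors, DESeq2 size factors or totals that include MT- genes 1 was higher and 1 lower, and the median edgeR log2 estimate turned from -0.12 to between 0.039 and 0.093. SNHG12 passed as lower, at 14.2 against 26.7, 20.02 against 35.6 and 10.1 against 23.6 CPM. ZFAS1 did not pass, at 454 against 467, 380.4 against 468 and 305 against 348 CPM.

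Genes of very long transcripts were the other large group on the lower side. Of 35 tested genes for giant proteins, 26 were lower (74.3%, beside 17.0% of all tested genes) and 0 higher. Their median log2 ratio was -0.95. DST (chromosome 6, 56457987 to 56954628, minus strand), which encodes a giant linker of the cytoskeleton, stood at 50.5 against 240.1 CPM, 13.1 against 67.2 CPM and 34.9 against 138 CPM. The usual side exceeded the low side 4.76-fold (3.27 to 7.14), 5.11-fold (3.02 to 8.95) and 3.97-fold (3.02 to 5.25), ratios that were close to each other in the 3 libraries. LRP2, the endocytic receptor megalin, was at 44.1 against 212, 3.13 against 11.9 and 7.80 against 28.7 CPM (edgeR adjusted p = 2.06e-08). HUWE1, a giant ubiquitin ligase, did not pass, at 97.8 against 106, 114 against 116 and 190.0 against 216 CPM.

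Chromatin regulators divided in the same way. Of 44 tested remodellers and modifiers, 17 were lower and 2 higher, with a median of -0.43. The lower ones are 38.6% of the list, beside 17.0% of all tested genes. The higher ones are 4.55%, near the 4.65% of all tested genes. KMT2C, a histone H3 lysine 4 methyltransferase, was at 36.3 against 124, 15.6 against 46.1 and 43.2 against 84.7 CPM (edgeR adjusted p = 2.80e-06). ASH1L, another histone methyltransferase of long gene span, was at 30.0 against 119, 20.02 against 40.9 and 34.9 against 76.6 CPM. The count of lower members was 14 to 16 under the other scalings and totals. The 2 higher members were DNMT3B, a de novo DNA methyltransferase, at 129 against 82.4, 823 against 651 and 934 against 733 CPM, and HDAC2, a histone deacetylase, at 489 against 353, 585 against 485 and 435 against 363 CPM.

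The annotated length of a gene, which the rule did not use, ordered the ratios in each library. Of the tested genes, 9011 (95.5%) had a single entry by symbol in GENCODE 29 on GRCh38, and 8815 of these were protein coding. In the quartile of protein-coding genes with the shortest span from start to end (median 8570 bases), the median log2 ratio was 0.21, 0.06 and 0.10 by library. In the quartile with the longest span (median 170772 bases) it was -0.79, -0.46 and -0.48. Of the 2204 genes in each, 159 were higher and 71 lower in the shortest quartile, and 30 higher and 983 lower in the longest, so 44.6% of the longest genes were lower beside 17.0% of all tested genes. Genes are not independent replicates, and no test was made of this order.

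Span and transcript length rise together, so span was also read within tertiles of transcript length. Among the protein-coding genes in the lowest tertile of longest annotated transcript, the median log2 ratio averaged over libraries was 0.13 in the quartile of shortest span and -0.03 in that of longest span. In the highest tertile it was -0.05 and -0.91, and 475 of 735 genes of longest span were lower there. Span quartiles were cut anew in each tertile. Median spans were 3998 and 61978 bases in the lowest tertile, and 27150 and 285876 bases in the highest. Transcript length was matched only roughly, with medians of 1695 and 2310 bases in the lowest tertile and 6208 and 7697 bases in the highest. The difference by span was also present in each tertile of mean level, with medians of 0.00 and -0.74 in the lowest, 0.09 and -0.64 in the middle and 0.19 and -0.36 in the highest tertile. Non-coding classes lay on the lower side too: 23 of 69 tested lincRNAs were lower (33.3%, beside 17.0% of all tested genes) and 3 higher.

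**Figure D3:**
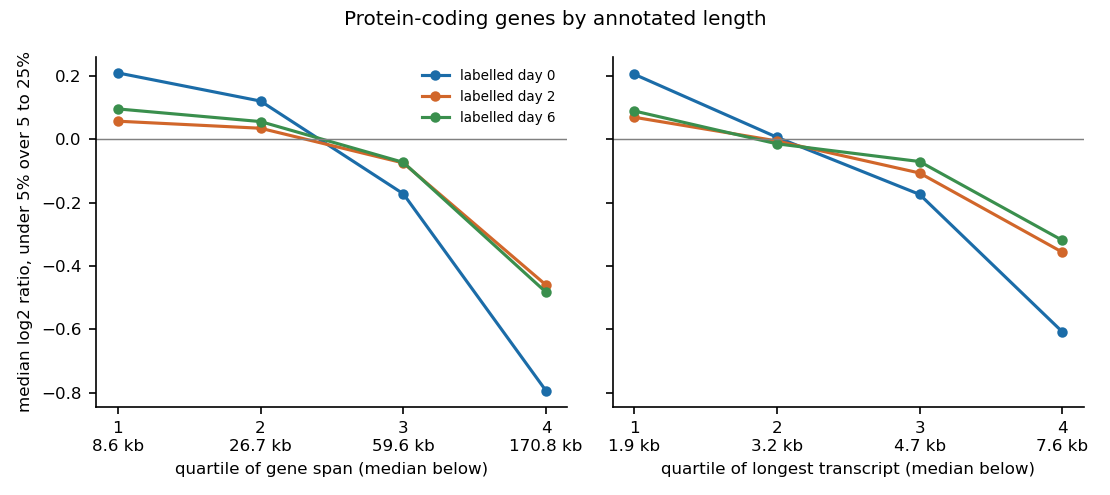
Median log2 ratio of low over usual cells for protein-coding genes in quartiles of gene span (left) and of longest annotated transcript (right), with 1 line per library and the quartile's median length under the axis. Each line falls from left to right, to -0.79, -0.46 and -0.48 in the quartile of longest span.

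The 15 lowest genes, chosen by the smallest of their 3 log2 ratios at a mean of at least 50 CPM, included XACT, NLGN1 and RORA. XACT (chromosome X, 113616300 to 114059289, minus strand), a long non-coding RNA that coats active X chromosomes in human pluripotent cells, was at 93.0 against 1242 CPM, 30.7 against 195 CPM and 99.2 against 610.4 CPM. Its usual over low ratios were 13.4 (10.3 to 17.7), 6.36 (4.58 to 8.98) and 6.16 (5.29 to 7.18), with an adjusted p of 8.08e-20 in edgeR's test. NLGN1, a synaptic adhesion protein, was at 33.1 against 321, 8.76 against 61.9 and 16.5 against 70.7 CPM. RORA, a nuclear receptor, was at 17.3 against 126, 13.1 against 60.6 and 25.2 against 138 CPM. For each of these 3 genes every low value lay below every usual value, with no overlap across the libraries. KCNT2, a potassium channel, and GPC6, a glypican, were also among them, and their edgeR log2 estimates were -2.41 and -2.32.

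Some of the lowest genes kept step with the mitochondrial UMIs themselves and are therefore not independent of the rule. Of the tested genes, 7 had UMIs in proportion to MT- UMIs, within a 2-fold range over low cells, usual cells and cells above 25%, in all 3 libraries, with at least 2 times more CPM above 25% than on the usual side: RP5-857K21.4, RP11-388G22.1, PCDH15, PCBD2, KIAA1468, ADAMTS9-AS2 and CACNA1E, the last named only for this count and after its values were seen. The clone-named RP5-857K21.4 gave 104, 110 and 130 UMIs per 1000 MT- UMIs in low, usual and above 25% cells of the library labelled day 0, and 91.2, 90.4 and 101 in that labelled day 6. PCDH15, a protocadherin, gave 5.70, 5.19 and 6.26 per 1000 in the library labelled day 0. XACT gave 6.01 and 7.49 per 1000 on the low and usual side there, but 0.771 above 25%. MALAT1 gave 117, 30.8 and 2.91 per 1000, with no such proportion. RP11-346D14.1, at 4.73 against 113 CPM in that library, missed the 2-fold range there (0.306, 0.678 and 1.06 per 1000) and gave 1.12, 0.942 and 1.15 in that labelled day 2. With the 7 genes left out of the totals and the test, 375 genes were higher and 1664 lower.

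Genes on the higher side were more abundant than those on the lower side, with median levels of 246 CPM over 416 annotated higher genes and 36.7 CPM over 1505 annotated lower genes. Among protein-coding genes of shortest span, 0 of 735 were higher in the lowest tertile of mean level and 130 of 735 in the highest. Among those of longest span it was 0 of 735 and 28 of 735. The 4.65% of all tested genes is therefore no background at like level for lists of abundant genes, and none was computed. The 13 of 29 translation factors that were higher (44.8%, beside 4.65% of all tested genes), with 0 lower, included EEF1A1, the elongation factor that delivers tRNAs to ribosomes, at 8202 against 6050.3, 10495 against 8549 and 7683 against 6174 CPM. Its low over usual ratio was 1.36 (1.304 to 1.41), 1.23 (1.19 to 1.26) and 1.24 (1.21 to 1.28), with an edgeR adjusted p of 8.15e-06. EEF2, the translocation factor, was at 1936 against 1190.1, 2805 against 2202 and 2450.0 against 1990.1 CPM. Within each library the low side was the higher for both genes. The list's count of higher genes was 7 without the library labelled day 2 or that labelled day 6, 4 with DESeq2's Wald test, 0 in cells of 2000 to 3000 UMIs and 23 with TMM factors.

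Of 84 tested cytosolic ribosomal protein genes, 24 were higher (28.6%, beside 4.65% of all tested genes) and 0 lower. Of the 84, 67 had ratios above 1 in all 3 libraries, which 20.8% of all tested genes had. Their summed share of the UMIs without MT- genes was 22.2% against 19.3%, 21.1% against 19.6% and 19.1% against 17.3%. RPL7 was at 6278 against 4603, 5494 against 4864 and 6123 against 5192 CPM. This count rested on the library labelled day 6 and on the tool: 1 gene was higher without that library, 0 with DESeq2's Wald test and 71 with TMM factors. It was also 0 in cells of 2000 to 3000 UMIs, and 0 when low cells were set against cells at 5 to 10%. Ribosomal protein genes, EEF1A1, GAPDH, ACTB and HNRNPA1 have many processed pseudogenes, so their counts are uncertain where reads could be shared.

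Of 28 chaperones and chaperonins 11 were higher, 0 lower and 17 not called, among them DNAJB1, a heat shock co-chaperone, at 129 against 69.6, 146 against 100.2 and 149 against 101 CPM, and HSPA8, the constitutive cytosolic HSP70, at 881 against 548, 917 against 746 and 694 against 571 CPM. Of 32 cytoskeletal genes 11 were higher, 1, ACTN4, was lower and 20 were not called. The higher genes are 39.3% of the chaperone list and 34.4% of the cytoskeletal list, beside 4.65% of all tested genes. Either list had 6 higher without the library labelled day 6 and 5 with DESeq2's Wald test. The chaperone list had 0 higher in cells of 2000 to 3000 UMIs and 23 with TMM factors. ACTB, beta actin, was at 3793 against 2271, 5119.7 against 4042 and 4510.2 against 3688 CPM, and TUBB, a beta tubulin, at 4295 against 2494, 3645 against 2836 and 4359 against 3868 CPM. Of 17 glycolytic genes 6 were higher (35.3%, beside 4.65% of all tested genes). In the same list 1, the glucose transporter gene SLC2A1, was lower, a call lost with TMM factors. The glycolytic count of higher genes was 3 without the library labelled day 6, 2 with the Wald test, 1 in cells of 2000 to 3000 UMIs and 12 with TMM factors. ENO1, which encodes enolase, stood at 1614 against 1007, 2253 against 2003 and 1614 against 1317 CPM; GAPDH also passed as higher but was counted at only 42.9 to 168 CPM.

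Genes of endoplasmic reticulum and secretory proteins passed in both directions. Of 33 tested, 7 were lower (HSPA5, HSP90B1, CALR, PDIA3, RPN2, TMED9 and SERPINH1) and 2 higher (SEC61G and TMED2), with a median of -0.10. These are 21.2% and 6.06% of the list, near the 17.0% and 4.65% of all tested genes. HSP90B1, the HSP90 of the endoplasmic reticulum lumen, was at 312 against 770.2, 263 against 465 and 216 against 349 CPM (edgeR adjusted p = 3.31e-08). HSP90AB1, its cytosolic relative, was at 3494 against 2635, 3912 against 3249.9 and 3438 against 2808 CPM (edgeR adjusted p = 0.000382). The balance of this list turned with scaling, to 10 higher and 2 lower with TMM factors, 9 and 3 with DESeq2 size factors and 9 and 2 with totals that include MT- genes, and without the library labelled day 6 it was 0 and 3. SERPINH1, a collagen chaperone, was at 566 against 681, 332 against 415 and 426 against 656 CPM.

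The share of nuclear genes for mitochondrial proteins that passed the test differed between lists. Of 79 nuclear subunits of oxidative phosphorylation 6 were higher and 0 lower, of 72 mitochondrial ribosomal proteins 3 were higher and 0 lower, and of 31 genes of mitochondrial import and maintenance 7 were higher and 0 lower. These are 7.59, 4.17 and 22.6% of the lists, beside 4.65% of all tested genes. Their median log2 ratios were 0.16, 0.15 and 0.16, beside -0.08 for all tested genes. ATP5B, the beta subunit of ATP synthase, was at 642 against 405, 899 against 725 and 676 against 516 CPM (edgeR adjusted p = 0.000614). HSPD1, the chaperonin of the mitochondrial matrix, was at 1553 against 1219, 1843 against 1589 and 1238 against 1013 CPM. Without the library labelled day 6 the counts of higher genes were 2, 0 and 1, with DESeq2's Wald test 1, 0 and 1, and with TMM factors 40, 23 and 15.

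**Figure D4:**
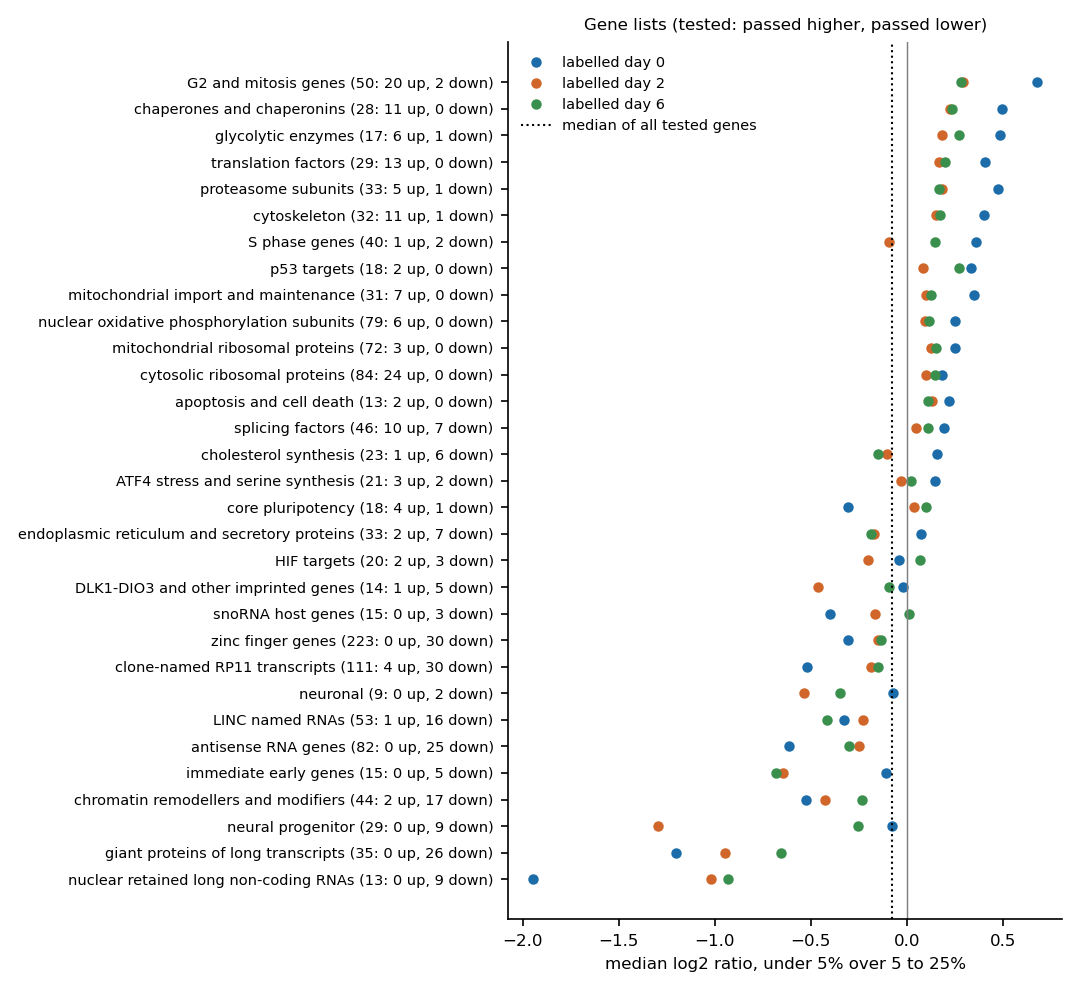
Median log2 ratio of low over usual cells for 31 gene lists with at least 9 tested genes, with 1 point per library and, in brackets, the genes tested and those that passed edgeR's test as higher or lower; the dotted line is the median of all tested genes. By the median of each gene's mean log2 ratio, the nuclear RNAs and giant proteins lie lowest, at -1.22 and -0.95, and the G2 and mitosis genes highest. In the library labelled day 2 the neural progenitor list lies lowest, at -1.30.

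Of 50 tested G2 and mitosis genes, 20 were higher, 2, CENPF and ASPM, were lower and 28 were not called. The higher ones are 40% of the list, beside 4.65% of all tested genes. The median log2 ratio of the list was 0.40 (0.68, 0.29 and 0.28 by library). NEK2, a centrosome kinase, was at 80.4 against 26.7, 48.2 against 19.8 and 30.8 against 19.1 CPM, with low over usual ratios of 3.01 (1.81 to 5.17), 2.44 (1.39 to 4.56) and 1.61 (1.01 to 2.63). PLK1, a mitotic kinase, was at 139 against 60.3, 187 against 128 and 97.3 against 69.2 CPM (edgeR adjusted p = 0.00112). ASPM, which encodes a very large spindle protein and belongs also to the giant proteins, was at 34.7 against 76.6, 20.02 against 26.4 and 9.18 against 22.8 CPM. S phase genes had 1 of 40 higher, RRM1, and 2 lower, BRIP1 and CASP8AP2. These are 2.5% and 5% of the list, beside 4.65% and 17.0% of all tested genes. The mitotic count was 12 without the library labelled day 0, 8 with DESeq2's Wald test and 0 in cells of 2000 to 3000 UMIs.

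The 15 highest genes by the same rule were LMNB2, DNAJB1, UCHL3, RP13-104F24.2, MRPL33, NSMCE4A, PRDX1, BAX, PLRG1, FAM83D, PLK1, DLAT, SPG21, TAF9B and AURKA. Their ratios lay far nearer to 1 than those of the lowest genes. LMNB2, a nuclear lamin gene, was at 93.0 against 58.0, 104 against 69.8 and 128 against 86.1 CPM, with an average log2 ratio of 0.61 ± 0.06 (SD, n = 3 libraries) and an edgeR adjusted p of 0.00607. BAX, which permeabilises mitochondria in apoptosis, was at 119.8 against 71.9, 133 against 89.6 and 101 against 71.4 CPM. It was 1 of 2 higher genes, with CYCS, among 13 tested genes of apoptosis, and 1 of 2, with CCNG1, among 18 tested p53 targets. The higher genes are 15.4% and 11.1% of these lists, beside 4.65% of all tested genes, and no gene of either list was lower.

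**Figure D5:**
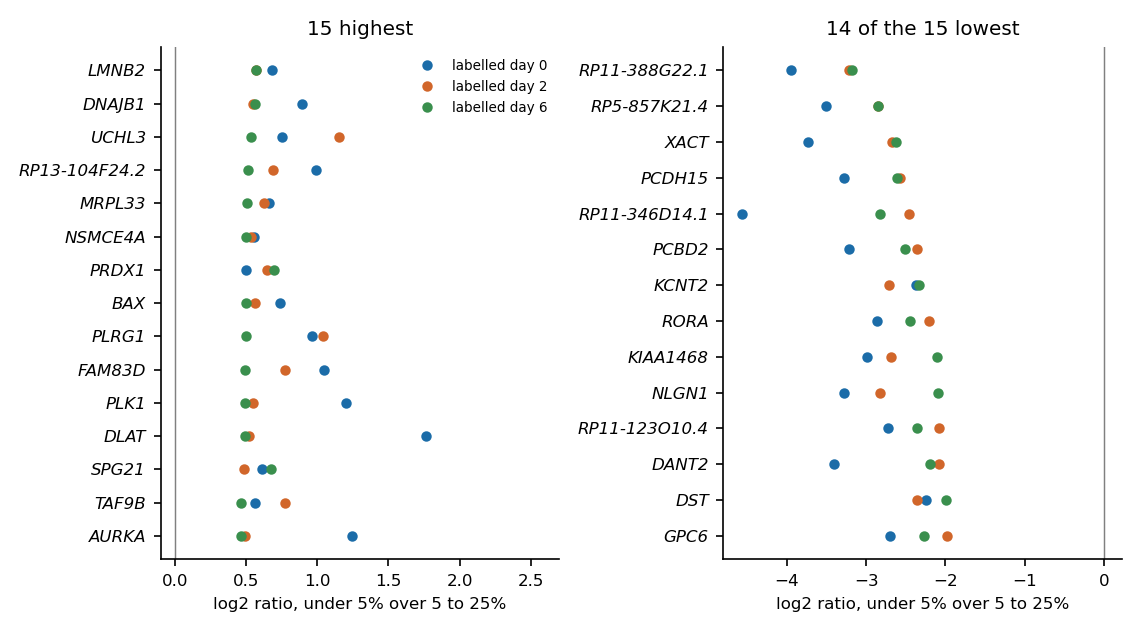
Log2 ratio of low over usual cells for the 15 highest and 14 of the 15 lowest genes, with 1 point per library. The highest genes lie between 0.46 and 1.76, and the lowest between -4.57 and -1.98; the library labelled day 0 often lies farthest from 0.

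Of 46 tested splicing factors 10 were higher and 7 lower. The higher ones are 21.7% and the lower ones 15.2% of the list, beside 4.65% and 17.0% of all tested genes. The counts were 23 and 3 with TMM factors and 4 and 6 without the library labelled day 6. HNRNPA1, an abundant RNA-binding protein, was at 4795 against 3076, 4185 against 3631 and 4536 against 3679.8 CPM. PNISR, an arginine and serine rich splicing protein, was at 271 against 701, 227 against 394 and 199 against 381 CPM (edgeR adjusted p = 4.34e-09), and PNN, pinin, at 145 against 389, 184 against 274 and 149.7 against 236 CPM. Immediate early genes, which respond within minutes to stimuli, had 5 of 15 lower (33.3%, beside 17.0% of all tested genes) and 0 higher. FOS was at 7.88 against 40.6, 47.6 against 115 and 1.84 against 8.84 CPM. Of 23 tested genes of cholesterol synthesis 6 were lower and 1, FDFT1, was higher, but 1 lower and 3 higher with TMM factors. Before that change these are 26.1% and 4.35% of the list, beside 17.0% and 4.65% of all tested genes.

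Of 18 tested pluripotency genes 4 were higher (POU5F1, LIN28A, DNMT3B and ESRG) and 1, SOX2, was lower, a call lost with TMM factors. These are 22.2% and 5.56% of the list, beside 4.65% and 17.0% of all tested genes. Without the library labelled day 6 the count of higher genes was 1, and with DESeq2's Wald test 2. POU5F1 had only 4 UMIs against 1 under the day 0 label, and was at 1767 against 1344 and 478 against 320.3 CPM under the day 2 and day 6 labels. LIN28A, an RNA-binding protein of early cells, was at 1602 against 1104, 1545 against 1162 and 2719 against 2288 CPM. Of 29 tested neural progenitor genes 9 were lower and 0 higher, and the list's summed level was 6926 against 8012, 1154 against 1976 and 3613 against 4166 CPM. Without its member DLK1 the sum was 3126 against 3838, 1147 against 1509 and 3486 against 3622 CPM. The list's median log2 ratio was -0.67 over members with UMIs on every side, and -0.08, -1.30 and -0.25 by library. With TMM factors 6 were lower and the median edgeR log2 estimate, a different measure, turned from -0.085 to 0.12. With the Wald test 3 were lower. The 9 of edgeR's test are 31% of the list, beside 17.0% of all tested genes.

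DLK1, an imprinted membrane ligand and 1 of the 9, was at 3799.7 against 4174 CPM, 7.51 against 467 CPM and 128 against 545 CPM. In the library labelled day 2, 24 of 279 usual cells and 0 of 496 low cells held 3 or more DLK1 UMIs, and a count of 0 allows a share of up to 0.605%; in that labelled day 6 it was 55 of 464 and 19 of 707 cells. With these cells left out, an alternative chosen after seeing the data, 443 genes were higher and 1577 lower, and MALAT1 kept an edgeR log2 estimate of -1.13. Markers of other cell types were low: the summed markers of trophoblast and amnion (15 found) took 6.31 to 57.4 CPM over the sides, those of mesoderm and endoderm (20 found) 40.05 to 85.8 CPM, and those of neural crest (12 found) 61.5 to 113 CPM, with 1, 3 and 0 members at 0 on every side. The part of cell identity, depth and genes per cell in the other differences was not tested.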

How the data were processed

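Single cells of H9 were captured by inDrop, and 3 deposited tables hold raw UMI counts per gene and barcode. Per the submitters' processing notes STAR and hg38 were used, and annotation, strand setting and barcode filter were not given in the sources used here. Each barcode had at least 100 genes. Members and gene lists were chosen with earlier results of these data known. UMIs were summed per gene, side and library, and CPM used totals without MT- genes. Summed depth was 634263 to 2178380 UMIs. Ratios had exact conditional 95% intervals, and intervals and floors of 3 UMIs cover counting error only.

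The 9438 genes with a mean of at least 10 CPM were tested with edgeR 4.0.16 (R 4.3.3), quasi-likelihood, with the library as a block because both sides come from the same library, and Benjamini-Hochberg adjustment, called under 0.05. A sign flip over 3 pairs cannot go below a two-sided p of 0.25. On simulated data for this comparison (9438 genes, 200 changed 2-fold), 72% of the changed genes were recovered and 1.37% of calls were false. The simulation used 1 dispersion for all genes (0.00961), the same change in each library and as many genes up as down. The real changes differed between libraries and lay mostly on the lower side, so these rates need not hold for them. Alternatives were TMM and DESeq2 1.42.0 size factors, other totals, filters, UMI windows and thresholds, each library left out, no block and DESeq2's Wald test. Tables used numpy 2.4.6, pandas 2.3.3 and scipy 1.17.1, and figures matplotlib 3.10.9.

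Named were MALAT1, NEAT1 and KCNQ1OT1, and the 15 highest and 15 lowest genes by whichever of the 3 log2 ratios lay nearest to 0. These had a mean of at least 50 CPM, the same direction in each library and an adjusted p under 0.05 in edgeR's test. From each list the 3 most abundant genes and the 2 with the mean log2 ratio farthest from 0 were named, and fixed identity genes. Other list members are named where few passed, and 2 genes are not reported here.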

Additional observations from a re-analysis of the deposited data

Results flagged for a closer look

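HSP90AA1, a cytosolic HSP90, differed in direction between the libraries. Its log2 ratio of low over usual cells was -0.23 in the library labelled day 0 (3551 against 4155 CPM), 0.01 in that labelled day 2 (2659.96 against 2642 CPM) and 0.32 in that labelled day 6 (2219.5 against 1782 CPM), and the widest difference was 0.54. The difference between libraries was not tested. Among all tested genes, 59 (0.625%) had 95% intervals on opposite sides of 1 in a pair of libraries.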

How the results depend on the processing

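The counts of higher and lower genes moved with most settings, and no gene of either list was called in the opposite direction under any of them. For the higher genes this is no check under the TMM, DESeq2 size factor and MT- inclusive scalings, which moved the median ratio upward. Higher genes numbered 1607 with TMM factors, 1181 with DESeq2 size factors, 1290 with totals that include MT- genes, 16 in cells of 2000 to 3000 UMIs, 1375 in cells above 5000 and up to 20000, 9 in cells of 1000 to under 2000, 2 against 5 to 10% and 74 with DESeq2's Wald test, and 180 to 336 with 1 library left out (180 without that labelled day 6). Lower genes numbered 567 at a mean of at least 50 CPM, 228, 2738 and 134 in the same 3 windows, 92 against 5 to 10% and 677 with the Wald test. Without the replicate block, which leaves the differences between libraries in the error, 0 genes were higher and 2 lower (63 and 898 at an unadjusted p under 0.05), and MALAT1 had an edgeR adjusted p of 0.65. Genes with all 3 intervals above 1 numbered 801 (TMM), 629 (size factors), 696 (with MT- genes), 35, 923 and 17 (windows), 24 (5 to 10%) and 323 to 486 (1 library left out). Those below 1 numbered 382 (TMM), 424 (with MT- genes), 336 (at least 50 CPM), 89, 1738 and 34 (windows), 43 (5 to 10%) and 824 to 1114 (1 library left out). The median edgeR log2 estimate of the shortest span quartile was 0.11, and 0.31, 0.26 and 0.29 under the 3 scalings. That of the longest was -0.55, and -0.35 (TMM), -0.37 (with MT- genes), -0.37 (at least 50 CPM), -0.29 (1000 to under 2000 UMIs) and -0.35 (5 to 10%). MALAT1 shares without thinning were 61.7, 98.2, 45.4, 74.6, 50.4 and 65.1%.

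Of 31 lists with at least 9 tested genes, 15 had a median edgeR log2 estimate that turned sign under at least 1 setting. For 6 it turned under each of the TMM, DESeq2 size factor and MT- inclusive scalings: snoRNA hosts, secretory proteins, neural progenitor, HIF, cholesterol and imprinted genes. Of called named genes, NSMCE4A (-0.00040), MRPL3 (-0.061) and GAPDH (-0.10) turned in cells of 1000 to under 2000 UMIs. Of list medians above both 0.1 in size and their spread between libraries, those that turned were the splicing list (-0.042) in the same cells, zinc finger genes (0.023 with TMM), LINC named RNAs (0.12 at least 50 CPM) and RP11 transcripts (0.031 with TMM, 0.0027 with MT- genes, 0.046 at least 50 CPM). The cause was not tested. Of 117 named genes called, 108 kept the call with TMM factors, and 21 of 115 against 5 to 10%. KCNQ1OT1 lost its call against 5 to 10% (edgeR adjusted p = 0.197). MALAT1 kept its call in each setting but the one without a block, but its adjusted p varied widely. It was 0.00751 with DESeq2's Wald test and 1.10e-46 in edgeR's test over all genes with at least 1 UMI. NEAT1, with 1 to 44 UMIs a side, fell under the CPM filter in several. Depth limits low genes: 3 UMIs are up to 4.73 CPM.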

Other observations

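Within the MT- genes, which the rule used, the ribosomal RNA MT-RNR2 made up 18.3% of MT- UMIs in low and 24.24% in usual cells of the library labelled day 0, 9.03% and 14.95% in that labelled day 2, and 12.5% and 16.5% in that labelled day 6. MT-ND4, a complex I subunit, made up 11.9% and 8.69%, 12.7% and 10.8%, and 11.3% and 9.20%. No test was made of this make-up.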
